A study of Mus musculus with 16 samples.

Results

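The values described here are those of 8 transcripts that neutrophils and their bone marrow precursors are known for: *S100a8*, *S100a9*, *Ctsg*, *Ngp*, *Camp*, *Elane*, *Mpo* and *Ltf*. They were taken by gene name from the 24946 gene names of the deposited TPM tables, and all 8 were found. RNA had been sequenced from lymphatic endothelial cells (LECs) of popliteal and brachial lymph nodes (LNs), sorted live as CD45-, CD31+ and podoplanin+ cells after depletion of CD45+ cells. The 16 libraries formed 4 groups of 4. Untreated mice gave the WT and KO groups, called steady state, and the WT inflamed and KO inflamed groups came from mice 1 day after an injection of ovalbumin (OVA) in Freund's adjuvant into the footpads. KO mice carried stab1-/-, a germline loss of Clever-1 (*Stab1*), a scavenger receptor of LECs and of some macrophages, so that other cells of the LN lacked it too. By the labels the mice were C57BL/6 and the adjuvant was complete. The study's methods instead give a mixed C57BL/6N and 129SvJ background, an incomplete adjuvant, both sexes and an age of 6 to 12 weeks, and a legend there says that each library held cells of a pair of mice.

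Neutrophils make their granule proteins in waves while they mature in the bone marrow. Precursors fill the azurophil granules first, with the serine proteases neutrophil elastase (*Elane*) and cathepsin G (*Ctsg*) and with myeloperoxidase (*Mpo*), which makes hypochlorous acid. Later stages fill the specific granules with lactoferrin (*Ltf*), which binds iron, with the antimicrobial cathelicidin (*Camp*) and with neutrophilic granule protein (*Ngp*). *S100a8* and *S100a9* encode the calcium-binding pair that forms calprotectin, which is abundant in the cytosol of circulating neutrophils and monocytes and acts as an alarmin outside cells. *Ctsg* is also transcribed in mast cells. LECs are not known as a main source of any of the 8, and the sort was set to leave leukocytes out.

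TPM corrects reads for transcript length and scales every library to the same total, so TPM of different genes can be compared but the depth of a library is unknown. Between 10903 and 12133 genes reached 1 TPM, with WT inflamed replicate 2 alone under 11898. That library also correlated least with the other libraries of its group. *Lyve1* at 1130 to 4650 TPM, *Flt4* at 152 to 562 TPM, *Prox1* at 16.8 to 104 TPM and *Pecam1* at 308 to 1200 TPM were present in all 16 libraries, and *Ptprc*, which encodes CD45, reached at most 2.84 TPM. *Stab1* lay between 193 and 640 TPM in the WT libraries of both conditions and between 5.09 and 8.90 TPM in the KO libraries, in accord with the labels. In sorted bulk RNA, fewer cells of a type and less RNA per cell cannot be told apart.

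The 8 transcripts fell into 3 patterns over the libraries. *S100a8* and *S100a9* were above 0 in all 16 libraries and *Ctsg* in 13. *Ngp* was above 0 in 3 libraries, *Camp* in 2, *Elane* in 2, *Mpo* in 5 and *Ltf* in 7, and each of these 5 reached 1 TPM in 1 library only. For *Elane* and *Mpo* that library was WT replicate 1, and for *Ngp*, *Camp* and *Ltf* it was KO replicate 3. Averaged over the 16 libraries the levels were 11.9 TPM for *S100a8*, 6.21 for *S100a9* and 4.68 for *Ctsg*, and from 0.198 for *Ltf* to 0.895 for *Ngp* among the other 5.

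**Figure D1:**
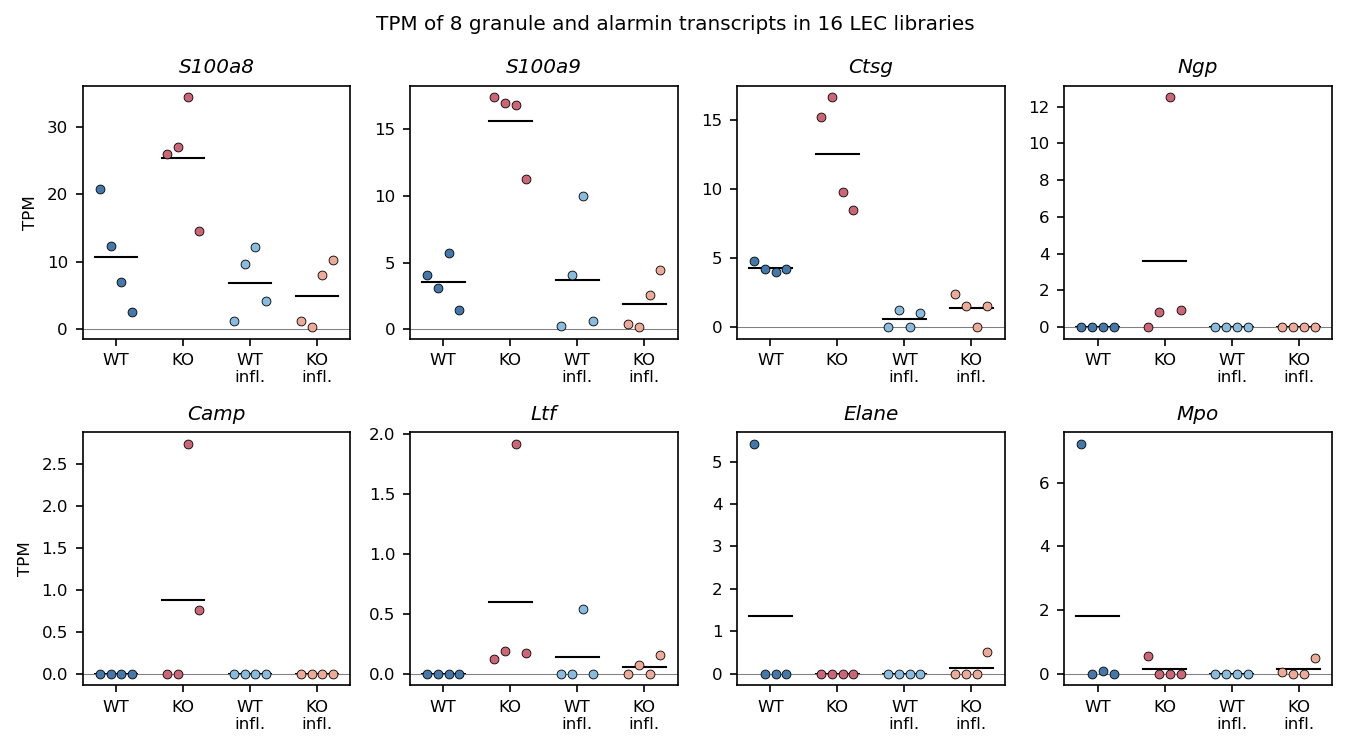
TPM (vertical axis, linear and scaled to each transcript) of the 8 transcripts in the 4 groups (horizontal axis, infl. = inflamed), with 1 point for each library in the order of replicates 1 to 4 and a line at the group mean. *S100a8*, *S100a9* and *Ctsg* have points above 0 in several groups with the highest in KO, while *Elane* and *Mpo* rest on a single WT point and *Ngp*, *Camp* and *Ltf* mainly on a single KO point.

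At steady state, *S100a9* and *Ctsg* were higher in KO than in WT LECs, and *S100a8* was higher on average without passing the test. *S100a9* read 4.06, 3.11, 5.74 and 1.41 TPM in WT replicates 1 to 4 and 17.4, 17, 16.8 and 11.3 TPM in KO replicates 1 to 4. Every KO library thus lay above every WT library, and KO replicate 4 lay below the other KO libraries. The log2 fold change of TPM + 1 was 1.94 (SE 0.275, limma, Benjamini-Hochberg adjusted p = 0.00293), and the group means of 3.58 ± 1.81 and 15.6 ± 2.90 TPM (SD, n = 4) differed 4.37-fold. For *S100a8*, the partner of *S100a9*, the WT libraries read 20.7, 12.3, 6.99 and 2.46 TPM and the KO libraries 26.0, 27.0, 34.3 and 14.5 TPM. These groups overlapped, because WT replicate 1 exceeded KO replicate 4. The log2 fold change of *S100a8* was 1.42 (SE 0.462, limma adjusted p = 0.22).

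*Ctsg*, the gene of cathepsin G, varied little between the WT libraries, with 4.74, 4.20, 4 and 4.23 TPM (4.29 ± 0.315, SD, n = 4). In KO LECs it read 15.2, 16.6, 9.80 and 8.48 TPM, and no KO library came down to the WT range. Its log2 fold change was 1.30 (SE 0.199, limma adjusted p = 0.00475), a 2.91-fold difference of the means. Thus 2 of the 3 tested members were called higher in KO, where 0.431% of all 12058 tested genes were called higher and 0.39% lower (adjusted p of 0.05 or less, with the level changed by 1 log2 unit or more). The members were chosen with earlier results of these data known, so such shares, here and below, do not test the members as a group. In a fit over all 16 libraries, which gives the groups a shared spread, neither *S100a9* nor *Ctsg* passed (adjusted p = 0.353 and 0.163, limma). With a pseudocount of 5 TPM the log2 fold change of *Ctsg* was 0.89, under the limit of 1. Two-sided exact permutation tests gave p = 0.0286 for *S100a9* and for *Ctsg*, the smallest value that 4 libraries against 4 allow, and p = 0.0571 for *S100a8*.

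The other 5 members did not reach 1 TPM in the 4 libraries needed for a test. *Ltf* read 0.125, 0.185, 1.92 and 0.168 TPM in the KO libraries and was listed at 0 in all WT libraries. Its KO libraries thus all lay above its WT libraries, but it was not tested. Among the tested members this held for 2 of 3, *S100a9* and *Ctsg*, as for 2.73% of the tested genes. Only KO replicate 3 carried *Ltf* above 1 TPM, and the other KO libraries stayed under 0.2 TPM.

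The pair of alarmin transcripts moved together from library to library. *S100a8* exceeded *S100a9* in all 16 libraries, by a ratio of TPM between 1.22 and 6.99 with a median of 2.16. The ratio ran from 1.22 to 5.10 in WT, from 1.28 to 2.03 in KO, from 1.22 to 6.99 in WT inflamed and from 1.75 to 3.11 in KO inflamed libraries. After subtraction of the group means, log2(TPM + 1) of *S100a8* and *S100a9* correlated over the 16 libraries with Pearson's r = 0.846 and Spearman's rho = 0.826. With the 2 libraries farthest from the median for *S100a8* left out after that subtraction, r was 0.781. This is a description of libraries that share their groups, and 28 pairs of members were compared in this way. *Ctsg* gave no such relation to the pair, with r = -0.115 against *S100a8* and r = -0.173 against *S100a9* on the same deviations.

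**Figure D2:**
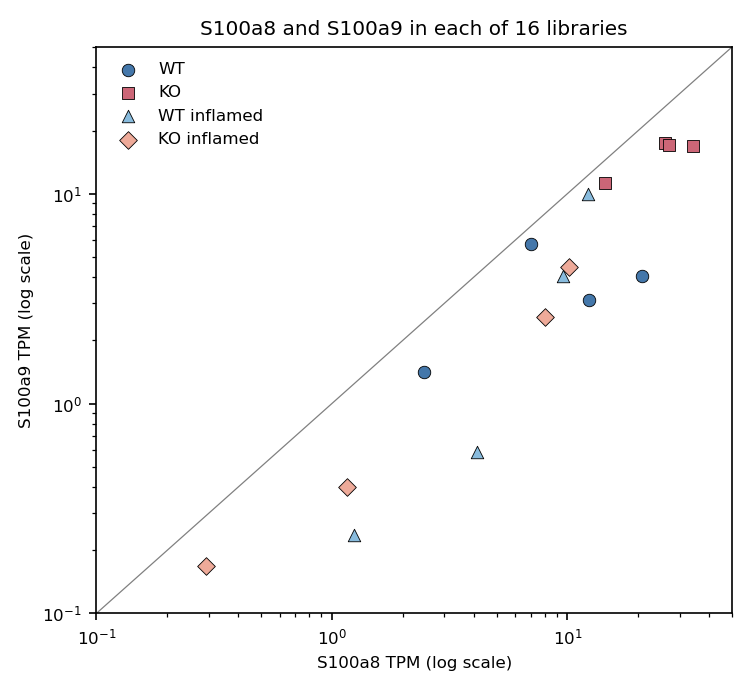
*S100a9* against *S100a8* in TPM, both on log axes, with 1 symbol for each of the 16 libraries and a line where the levels are equal. All 16 libraries lie on the *S100a8* side of the line, and the 4 KO libraries at steady state form the upper end, with *S100a9* between 11.3 and 17.4 TPM.

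*S100a8* lies at chr3:90669071-90670034 and *S100a9* at chr3:90692630-90695721, 22.6 kb apart on GRCm38.p6 (RefSeq), and *Ctsg* at chr14:56099885-56102574. The promoters of these 3 transcripts, from 250 bases before to 50 bases after the annotated start, are shown because theirs are the levels that differed between groups. They come from RefSeq on GRCm38.p6, at chr3:90668821-90669120 on the plus strand for *S100a8*, at chr3:90695672-90695971 on the minus strand for *S100a9* and at chr14:56102525-56102824 on the minus strand for *Ctsg*. Capitals mark GAGGAA, the core bound by PU.1, TATAAA, the TATA box, and TTNNGCAA, a C/EBP-type site, each searched on both strands.
S100a8: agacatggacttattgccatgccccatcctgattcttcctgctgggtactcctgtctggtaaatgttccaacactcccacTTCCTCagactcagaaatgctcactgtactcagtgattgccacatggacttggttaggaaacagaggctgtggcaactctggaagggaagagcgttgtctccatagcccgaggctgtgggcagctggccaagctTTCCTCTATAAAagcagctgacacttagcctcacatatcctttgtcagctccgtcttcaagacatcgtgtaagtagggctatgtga
S100a9: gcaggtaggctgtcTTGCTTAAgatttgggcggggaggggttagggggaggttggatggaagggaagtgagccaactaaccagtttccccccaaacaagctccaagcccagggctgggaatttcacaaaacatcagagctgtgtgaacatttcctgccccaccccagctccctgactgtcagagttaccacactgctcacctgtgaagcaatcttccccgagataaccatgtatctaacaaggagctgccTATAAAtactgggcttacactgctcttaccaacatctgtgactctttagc
Ctsg: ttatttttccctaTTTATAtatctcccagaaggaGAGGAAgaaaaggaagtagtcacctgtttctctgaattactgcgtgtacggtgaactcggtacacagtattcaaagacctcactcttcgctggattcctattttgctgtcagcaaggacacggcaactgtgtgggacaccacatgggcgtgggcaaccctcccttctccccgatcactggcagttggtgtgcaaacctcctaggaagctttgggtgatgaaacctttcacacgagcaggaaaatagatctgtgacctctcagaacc
In *S100a8* a GAGGAA on the minus strand ends directly before a TATAAA that begins 30 bases before the start, with no shared base, and a further GAGGAA lies 170 bases before it. The *S100a9* window holds a TTNNGCAA on the minus strand 236 bases before the start, and its TATAAA begins at the annotated first base. The *Ctsg* window holds GAGGAA 216 bases and, on the minus strand, TATAAA 237 bases before the start. GAGGAA was present in 28.3% of the 32851 promoter windows of this length, TATAAA in 13.6% and TTNNGCAA in 10.8%. Among the 8 members GAGGAA occurred in 5, TATAAA in 3 and TTNNGCAA in 3. A match of letters is not evidence of binding.

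At 1 day after OVA, all 3 tested members were lower in KO LECs, and in WT LECs only *Ctsg* passed the test. In KO inflamed replicates 1 to 4, *S100a8* read 1.16, 0.293, 8 and 10.2 TPM, all below the 14.5 to 34.3 TPM of KO at steady state. The log2 fold change was -2.63 (SE 0.616, limma adjusted p = 0.00395). *S100a9* read 0.398, 0.168, 2.58 and 4.48 TPM in KO inflamed libraries, against 11.3 to 17.4 TPM before, with a log2 fold change of -2.79 (SE 0.430, adjusted p = 0.000293, limma). Within KO inflamed, replicates 3 and 4 were high and replicates 1 and 2 low for *S100a8* and *S100a9* alike. *Ctsg* was 2.39, 1.51, 0 and 1.55 TPM in KO inflamed libraries, with a log2 fold change of -2.60 (SE 0.348, limma adjusted p = 0.00012), and here replicate 3 was the lowest.

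All 3 tested members were thus called lower in KO inflamed LECs, where 3.06% of the 12161 tested genes were called lower and 6.41% higher. *S100a8* and *Ctsg* reached 1 TPM in 3 KO inflamed libraries and *S100a9* in 2, but all of them in the 4 KO libraries at steady state. They thus entered the test through the group where they were high, so the filter favours a lower call for the members tested. The inflamed libraries of each of the 3 lay below all steady state ones, as they did for 14.4% of the tested genes. The median log2 fold change of all tested genes was 0.24 in this comparison, so the 3 members moved against it. The exact permutation p was 0.0286 for each of them (two-sided). The other 5 members gave no test, and *Ngp* and *Camp* were listed at 0 in all 8 inflamed libraries.

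In WT LECs after OVA, *Ctsg* read 0, 1.24, 0 and 0.981 TPM, all under the 4 to 4.74 TPM of WT at steady state, as 8.81% of the tested genes were. The log2 fold change was -1.86 (SE 0.294, limma adjusted p = 0.00757), and *Ctsg* was the 1 member of 3 called lower, where 1.97% of the 12031 tested genes were called lower and 1.99% higher. It reached 1 TPM in 5 of the 8 libraries, 4 of them the steady state ones. Its adjusted p was 0.0512 with a pseudocount of 0.1 TPM, and its log2 fold change -0.75 with 5 TPM. *S100a8* in WT inflamed replicates 1 to 4 was 1.24, 9.59, 12.2 and 4.12 TPM and overlapped with WT, with a log2 fold change of -0.58 (SE 0.673, limma adjusted p = 0.818). *S100a9* was 0.237, 4.04, 10 and 0.589 TPM, with a log2 fold change of -0.41 (SE 0.663, adjusted p = 0.899, limma). WT inflamed replicate 3 carried the most of both alarmin transcripts and replicate 1 the least.

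Whether the response to OVA differed between the genotypes was asked with the interaction term over the 16 libraries. The difference of the responses was -2.38 for *S100a9* (SE 0.874, unadjusted p = 0.0155), -2.05 for *S100a8* (SE 1.02) and -0.73 for *Ctsg* (SE 0.503) on the log2 scale, each with an adjusted p of 0.668 (limma). No member passed, and of all 12684 tested genes 0% did. Of the 3 members, 1 was under an unadjusted p of 0.05. A drop in KO that passed the test is thus not shown to be larger than the drop in WT. KO inflamed and WT inflamed LECs were likewise not called apart in any of the 3 members (limma, 0 under an unadjusted p of 0.05), where 0.191% of 12030 genes were called higher and 0.125% lower. The log2 fold changes were -0.63 (SE 0.799) for *S100a8*, -0.44 (SE 0.757) for *S100a9* and 0.57 (SE 0.421) for *Ctsg*, with adjusted p of 0.733, 0.781 and 0.717 (limma). These comparisons share their control libraries.

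**Figure D3:**
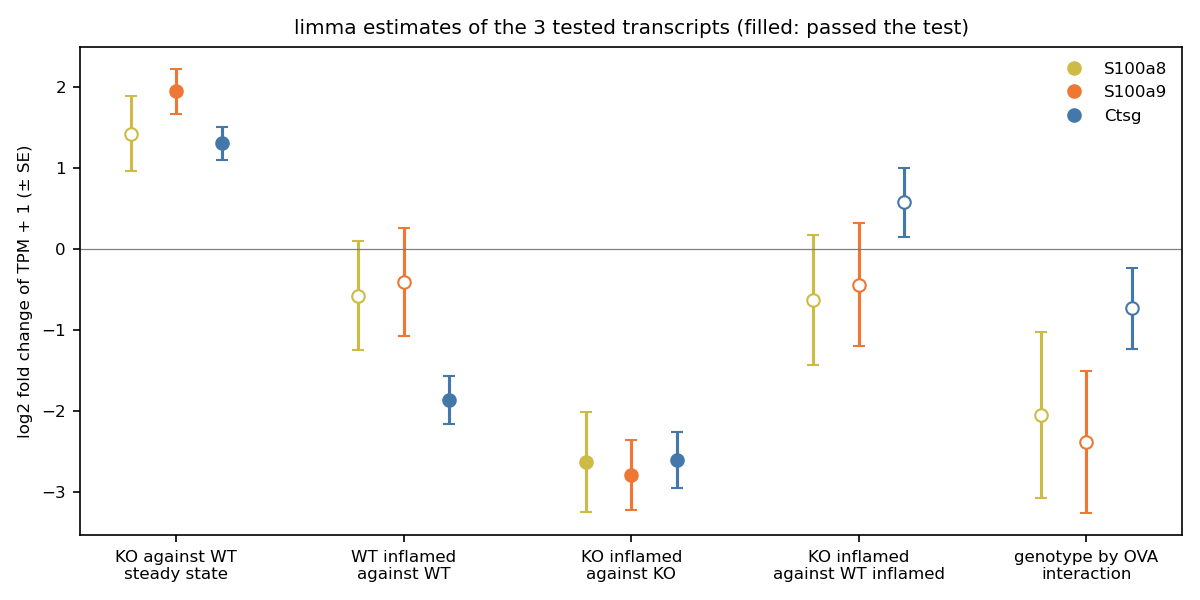
log2 fold change of TPM + 1 with its SE from limma (vertical axis) for *S100a8*, *S100a9* and *Ctsg* in the 4 comparisons and the interaction (horizontal axis), with filled symbols where the transcript passed the test. The 3 symbols of KO inflamed against KO lie between -2.79 and -2.60 and are all filled, while none is filled in the last 2 columns.

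*Elane* and *Mpo* tracked a single WT library. *Elane*, neutrophil elastase, read 5.42 TPM in WT replicate 1 and 0.516 TPM in KO inflamed replicate 4, and was listed at 0 in the other 14 libraries. *Mpo*, myeloperoxidase, read 7.21 TPM in WT replicate 1 and at most 0.559 TPM in any other library. WT replicate 1 held 91.3% of the summed TPM of *Elane* and 86.0% of that of *Mpo*. In that library *Elane* and *Mpo* together made up 30.0% of the 8 members' TPM. *Elane* and *Mpo* correlated on their deviations with r = 0.977. With WT replicate 1 left out after subtraction of the group means, r was 0.910. KO inflamed replicate 4 was then the highest for *Elane*. The WT means subtracted still included WT replicate 1, so this r does not show a relation without that library.

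The promoters of *Elane*, at chr10:79886062-79886361, and of *Mpo*, at chr11:87793534-87793833, both on the plus strand of GRCm38.p6 (RefSeq), are shown as those of the pair found in the same library. Capitals again mark GAGGAA, the only 1 of the 3 motifs found in these windows.
Elane: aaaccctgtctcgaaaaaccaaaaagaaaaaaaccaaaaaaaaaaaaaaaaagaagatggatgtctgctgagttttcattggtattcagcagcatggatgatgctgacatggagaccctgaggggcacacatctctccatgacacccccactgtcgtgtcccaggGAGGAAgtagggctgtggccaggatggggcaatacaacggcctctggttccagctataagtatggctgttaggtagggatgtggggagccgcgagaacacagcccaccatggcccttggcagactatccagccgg
Mpo: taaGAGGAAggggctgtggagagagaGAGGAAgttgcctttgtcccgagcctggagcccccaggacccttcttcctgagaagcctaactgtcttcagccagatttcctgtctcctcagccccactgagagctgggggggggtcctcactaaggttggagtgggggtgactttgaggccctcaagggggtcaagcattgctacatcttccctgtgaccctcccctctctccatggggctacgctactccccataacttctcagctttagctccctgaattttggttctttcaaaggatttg
GAGGAA begins 85 bases before the start of *Elane*, and 247 and 224 bases before that of *Mpo*. The genes lie on different chromosomes.

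WT replicate 1 also carried the precursor gene *Ms4a3*, at 1.69 TPM and listed at 0 in the other 15 libraries. Among genes at 1 TPM or more in a library and over 10 times every other library, a rule set after the values were seen, WT replicate 1 had 13, of which 3 were protein-coding: *Mpo*, *Elane* and *Ms4a3*. *Prtn3*, a further azurophil protease, read 0.577 TPM there and at most 0.333 TPM elsewhere, and *Fcnb*, of the same stage, was listed at 0 in all libraries. Other leukocyte genes were high in this library too. *Jchain* and *Mzb1*, of plasma cells, read 11.3 and 10.8 TPM there and at most 2.91 and 2.09 TPM in the other WT libraries, and *Cd3e*, of T cells, 7.79 against at most 3.84 TPM. *Ptprc* was 2.84 TPM, the highest of the 16 libraries. Of 47 leukocyte markers, 21 were highest in WT replicate 1 within its group, and 17 in WT replicate 3, which had *Elane* at 0. The part of these cells in the levels of *Elane* and *Mpo* was not tested.

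*Ngp*, *Camp* and *Ltf* tracked KO replicate 3. *Ngp*, neutrophilic granule protein, read 0, 0.835, 12.5 and 0.942 TPM in KO replicates 1 to 4, and *Camp*, cathelicidin, 0, 0, 2.74 and 0.753 TPM. Both were listed at 0 in all WT and all inflamed libraries. KO replicate 3 held 87.6% of the summed TPM of *Ngp*, 78.5% of that of *Camp* and 60.7% of that of *Ltf*. These genes lie on chromosome 9, *Camp* 0.57 Mb from *Ngp* and *Ngp* 0.596 Mb from *Ltf*. On their deviations *Ngp* and *Camp* correlated with r = 0.937, and *Ngp* and *Ltf* with r = 0.876. With KO replicate 3 left out after subtraction of the group means, r was 0.803 and 0.608. The KO means subtracted still included that library, so these values do not show a relation without it. Apart from KO replicate 3, only KO replicates 2 and 4 held *Ngp* or *Camp*.

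*Chil3*, which belongs to the same granule wave, was likewise highest in KO replicate 3, at 2.95 TPM, next to 1.77 TPM in KO replicate 4 and at most 0.735 TPM in the other 14 libraries. Other leukocyte genes were often highest in KO replicate 3 as well, namely 19 of the 47 markers within its group, the most of the 4 KO libraries, and among them 5 of 8 pan leukocyte and 5 of 9 T and NK cell markers. KO inflamed replicate 3 was highest for 22 of the 46 markers above 0 in its group, and *Ngp*, *Camp* and *Ltf* were listed at 0 there. The part of leukocytes in the levels of *Ngp*, *Camp* and *Ltf* was not tested. Of the azurophil transcripts, *Elane* and *Mpo* were listed at 0 in KO replicate 3. *S100a8* was highest of all 16 libraries in KO replicate 3, at 34.3 TPM, whereas *S100a9* at 16.8 TPM stood level with KO replicates 1 and 2. Without WT replicate 1 and KO replicate 3, *S100a9* and *Ctsg* were still called higher in KO, with log2 fold changes of 1.98 and 1.44 and adjusted p of 0.0338 and 0.0258 (limma, an alternative added after the data were seen).

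**Figure D4:**
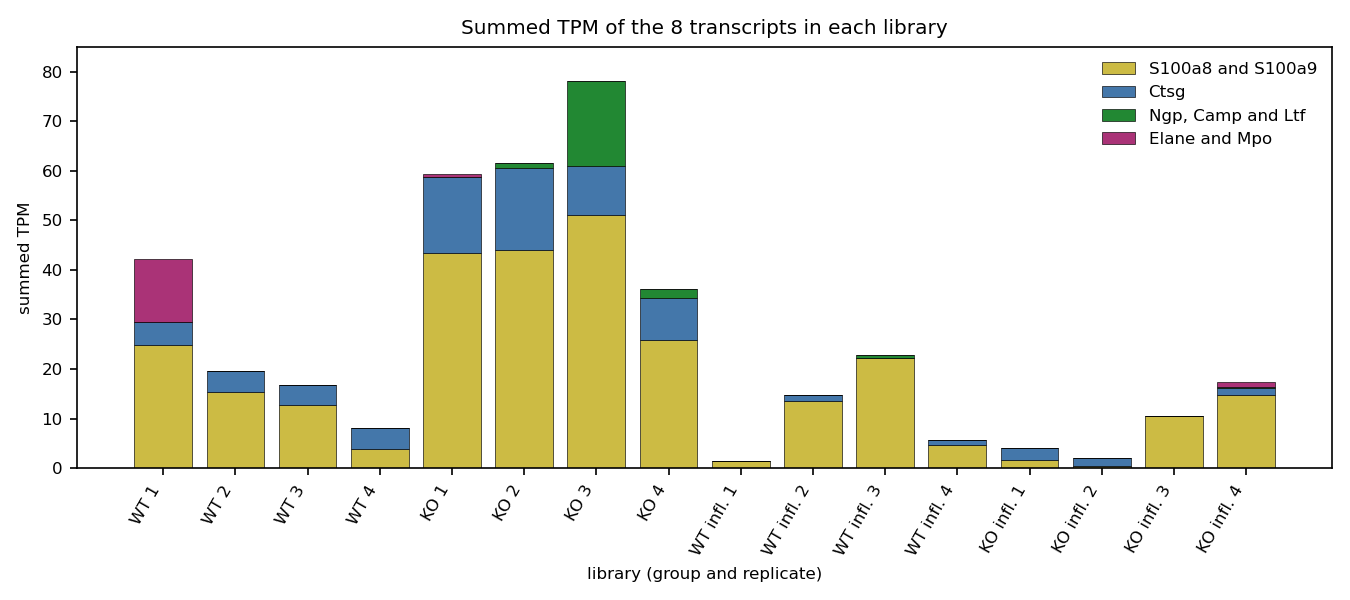
Summed TPM (vertical axis) of the 8 transcripts in each of the 16 libraries (horizontal axis, infl. = inflamed), stacked as *S100a8* with *S100a9*, *Ctsg*, *Ngp* with *Camp* and *Ltf*, and *Elane* with *Mpo*. The sums run from 36.1 to 78.1 TPM in KO, from 8.10 to 42.1 TPM in WT and from 1.48 to 22.8 TPM in the inflamed libraries, and the granule sets other than *Ctsg* show mainly in WT 1 and KO 3.

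*Ctsg* was high in libraries without the other azurophil transcripts. In the KO libraries with the highest *Ctsg*, replicates 1 and 2, *Elane* was listed at 0 and *Mpo* read 0.559 and 0 TPM. Since mast cells also make cathepsin G, their proteases were read beside it. *Cma1*, a chymase, read 1.35, 3.89, 3.13 and 0 TPM in WT and 1.83, 5.57, 0 and 0.753 TPM in KO libraries, and *Tpsb2*, a tryptase, 0, 2.65, 1.91 and 0 TPM and 0.843, 4.18, 0 and 0.942 TPM. Both were highest in KO replicate 2, where *Ctsg* was highest as well. In KO replicate 3, with *Ctsg* at 9.80 TPM, both were listed at 0. The summed TPM of the 11 mast cell and basophil markers ran from 42.0 to 57.5 in KO and from 47.2 to 65.9 in WT, mostly from *Gata2*, and from 11.2 to 27.1 and from 17.7 to 28.3 without it. Of the 11, 6 were highest within KO in KO replicate 2, and 5 were highest there of all 16 libraries. In WT replicate 2, with *Ctsg* at 4.20 TPM, 8 of the 10 above 0 in WT were highest. The 4 tested in KO against WT were *Cma1*, *Kit*, *Hdc* and *Gata2*. None of these was called, with a median log2 fold change of -0.20, beside -0.04 over all tested genes. The part of mast cells in the levels of *Ctsg* was not tested.

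*Ctsg* sits in the granzyme and mast cell protease cluster of chromosome 14, 24.9 Mb from *Stab1*. Of its 14 neighbours in the list 9 were listed at 0 in all libraries. *Cma1* was the only neighbour tested in KO against WT and was not called (log2 fold change -0.14, SE 0.579, limma adjusted p = 0.965). *Gzmc*, 0.129 Mb away, read 0.467 to 1.35 TPM in WT LECs at steady state and was listed at 0 in the other 12.

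Genes of circulating neutrophils were at low levels, though 10 of 18 such markers outside the granules reached 1 TPM in some library. The other 8 stayed under 1 TPM in every library, among them *Ly6g*, at most 0.237 TPM, *Cxcr2*, at most 0.852 TPM, and *Cxcr1*, at most 0.172 TPM. *Stfa2l1* was listed at 0 in all 16. The summed TPM of the 18 was 8.59 to 13.6 in WT, 12.3 to 20.2 in KO, 5.92 to 19.1 in WT inflamed and 11.1 to 24.1 in KO inflamed libraries. *Csf3r*, the G-CSF receptor, read 0.781 to 1.67 TPM in WT and 1.48 to 2.21 TPM in KO libraries. Of the 4 tested in KO against WT only *Il1r2*, a decoy receptor for interleukin 1, was called, with a log2 fold change of 1.17 (SE 0.231, limma adjusted p = 0.0259), and it read 2.29 to 4.91 TPM in KO and 0.623 to 1.98 TPM in WT libraries. Of 5 tested in KO inflamed against KO, *Il1r2* (log2 fold change -1.06) and *Cd300ld* (-1.14) were called lower and *Acod1* (1.79) higher. In WT inflamed against WT, *Cd300ld* alone of 4 tested was called, and it was lower (-1.93).

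Other granule genes were read beside the members. Of 8 tested genes of the secondary and tertiary granules none was called in KO against WT (median log2 fold change -0.05), nor of 5 tested azurophil and progenitor genes (median 0.09). *Lcn2*, lipocalin 2, which binds bacterial siderophores and is also made by other cells, rose after OVA while *Ltf* and *Ngp* stayed under 1 TPM. It read 25.9 to 31.0 TPM in WT and 256 to 468 TPM in WT inflamed libraries (log2 fold change 3.73, SE 0.213, limma adjusted p = 5.63e-05), and 32.5 to 51.4 TPM in KO and 149 to 302 TPM in KO inflamed libraries (2.28, SE 0.213, adjusted p = 1.3e-05). In KO inflamed LECs *Lyz2*, lysozyme, and *Cyba*, a subunit of the phagocyte oxidase, were called lower, 2 of the 6 tested.

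None of 7 tested other S100 genes was called in KO against WT, with a median log2 fold change of -0.15. *S100a11* rose after OVA in both genotypes, by 1.30 in WT (SE 0.221, adjusted p = 0.0108, limma) and 1.03 in KO (SE 0.0746, adjusted p = 3.15e-06, limma) on the log2 scale. *S100a6* was lower in KO inflamed than in KO LECs, with a log2 fold change of -1.06 (SE 0.19, limma adjusted p = 0.000805).

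Receptors and signalling partners of the alarmins were read from a list of 12. In KO against WT, *Irak4*, a kinase downstream of Toll-like receptors, was the only 1 of 11 tested that was called, and it was lower (20.1 to 27.2 TPM in WT, 7.30 to 10.9 TPM in KO, log2 fold change -1.33, SE 0.15, limma adjusted p = 0.000517). *Tlr4*, a receptor of calprotectin, was not called, at 5.54 to 10.2 TPM in WT and 5.44 to 6.84 TPM in KO libraries. After OVA, *Cd14* and *Mcam* were called higher and *Cd33* lower in each genotype. Among cytokines and adhesion molecules that raise or attract neutrophils, 2 of 13 tested genes were called higher in KO at steady state. These were *Csf3*, encoding G-CSF, at 15 to 22.4 TPM in KO and 5.10 to 8.63 TPM in WT (log2 fold change 1.32, SE 0.182, limma adjusted p = 0.00227), and *Il1b*, at 11.1 to 16.4 and 3.02 to 6.88 TPM (1.36, SE 0.229, adjusted p = 0.00947). *Csf3* rose further after OVA in both genotypes, whereas *Il1b* was called lower in KO inflamed against KO LECs (log2 fold change -1.73, SE 0.406, limma adjusted p = 0.00402). Of the inhibitors of granule proteases, 1 of 12 tested, *Serpina3n*, was called higher in KO at steady state, at 410 to 533 TPM against 190 to 241 TPM in WT.

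Several genes listed as markers of other blood cells fell after OVA beside the members, while some LEC markers rose. Of 10 tested LEC markers 4 were called higher in KO inflamed and 0 in WT inflamed LECs. The summed TPM of the 11 listed was 3640 to 4380 in KO and 7810 to 8530 in KO inflamed libraries. In WT it was 3890 to 4430 and in WT inflamed libraries 2920 to 7860. TPM are shares of a fixed total, so such rises and falls are not independent. Of the macrophage and monocyte markers 7 of 11 tested were called lower in KO inflamed and 6 of 11 in WT inflamed LECs. Both counts include *Marco*, which held most of the summed TPM of that list (5940 to 6740 in WT, 405 to 1150 without it). Which cells its transcripts came from was not tested. Of the T and NK cell markers 6 of 7 and 1 of 7 were called lower. Of the erythroid markers 3 of 4 and 3 of 5 tested were called lower, and their summed TPM went from 408 to 1000 in WT and 442 to 841 in KO libraries to at most 126 in any inflamed library. *Pf4*, a platelet gene, fell from 129 to 169 TPM at steady state to 13.6 to 31.5 TPM. It was the only 1 of 3 tested platelet markers called lower, in each genotype. The 2 not called, *Itga2b* and *Gp1ba*, had log2 fold changes of 0.525 and -0.475 in KO inflamed against KO LECs. *Itga2b* was also on the list of LEC markers. It held most of the summed TPM of the platelet list (824 to 946 in WT, 135 to 174 without it). In KO against WT, no tested macrophage (11), T and NK cell (7), B and plasma cell (7) or erythroid (6) marker was called. *Cd79a* and *Cd79b*, of B cells, had adjusted p of 0.0132 and 0.0239 (limma) but log2 fold changes under the limit of 1 (0.914 and 0.531). The summed TPM of the B and plasma cell markers was 73.7 to 103 in WT and 118 to 131 in KO libraries. Of the 4 tested dendritic cell markers 1 was called, *Siglech*, which was lower in KO (4.56 to 6.26 TPM in WT, 1.44 to 2.65 TPM in KO). Some markers of blood endothelium and high endothelial venules (HEVs), the vessels by which lymphocytes enter LNs, moved in the direction of *S100a9* and *Ctsg*. Of 12 tested, 3 were called higher in KO at steady state and the same 3 lower in KO inflamed against KO: *Glycam1* and *Madcam1*, which encode ligands for lymphocyte homing receptors, and *Fut7*, a fucosyltransferase that helps to build such ligands. The other 9 were not called in KO against WT. After OVA *Selp*, from the same list, was called higher in both genotypes (log2 fold change 2.57 in KO and 2.47 in WT). The summed TPM of the 12 was 4000 to 4590 in WT, 6690 to 7830 in KO, 3360 to 5040 in WT inflamed and 3780 to 5750 in KO inflamed libraries. The part of any of these cells in the levels of *S100a8*, *S100a9* and *Ctsg* was not tested.

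The genes most like *S100a8* in log2(TPM + 1) over the 16 libraries, among 12684 genes, were *S100a9* (r = 0.916, rho = 0.888), *Skap1* (r = 0.869, rho = 0.903) and *Bloc1s4* (r = 0.864, rho = 0.794). For *S100a9* they were *S100a8*, *Skap1* (r = 0.881, rho = 0.862) and *Nkg7* (r = 0.879, rho = 0.859). *Skap1*, a T cell adaptor, averaged 1.88 TPM in KO and 1.23 TPM in WT libraries. For *Ctsg* they were *Gm13889* (r = 0.940, rho = 0.947), *Pnck* (r = 0.932, rho = 0.956) and *Ltb* (r = 0.930, rho = 0.929). *Ltb*, lymphotoxin beta, averaged 314 TPM in WT, 401 in KO, 109 in WT inflamed and 138 in KO inflamed libraries, the same order of groups as *Ctsg*. The difference between steady state and inflamed libraries enters these correlations, which are given as a description without a test.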

How the data were processed

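RNA of sorted LN LECs had been sequenced as single-end reads from libraries made with SMART-Seq v4 and Nextera XT, which do not mark strand. By the study's methods the authors aligned the reads to mm10 with STAR and quantified genes with salmon, and the submitters' processing notes name STAR 2.5.2b, Subread and limma. The authors deposited TPM for each gene and library in 3 tables, which repeat 8 library columns with 0 differing values. Dates stood in place of 26 gene names in each of them and these were left out. The other 7 tables hold the authors' own comparisons of groups and were not used.

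The 16 libraries were grouped by the labels. With R 4.3.3 and limma 3.58.1 (lmFit, eBayes with trend), log2(TPM + 1) was fitted over the libraries of the groups compared, or over all 16 for the interaction, for genes that reached 1 TPM in 4 or more of them. A gene was called when its Benjamini-Hochberg adjusted p was 0.05 or less and its level changed by 1 log2 unit or more. This scale understates changes of low genes. The method was tested on simulated data with normal noise. The genes changed there all had control means above the WT means of *S100a9* and *Ctsg*, so recovery at such low levels was not tested. Exact permutation tests of single members were two-sided. TPM keep no depth, so precision rests on 4 libraries per group, and where nothing says that libraries came from separate mice the p-values measure the spread between libraries only. An exact 0 can be a failed estimate and is given as listed at 0.

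The 8 members and the gene lists were chosen with earlier results of these data known. Named were the members, up to 4 genes of each list (those called first, then the highest), the 3 genes most like each member with a mean of at least 1 TPM, and *Stab1*. *Ly6g*, *Cxcr1*, *Cxcr2*, *Csf3r*, *Stfa2l1*, *Cma1*, *Tpsb2*, *Gzmc*, *Prtn3*, *Fcnb*, *Ms4a3*, *Chil3*, *Tlr4*, *Jchain*, *Mzb1*, *Cd3e* and *Ptprc* were chosen after their values were seen. Positions and promoters came from RefSeq on GRCm38.p6, the assembly of mm10, where all 8 members matched. Each library was left out in turn, and the other alternatives were a pseudocount of 0.1 or 5 TPM, a minimum of 5 TPM or none, quantile or median ratio scaling, a replicate block, array weights, eBayes with no trend, no limit on the fold change and a common fit to all libraries.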

Additional observations from a re-analysis of the deposited data

Results flagged for a closer look

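In groups of 4 libraries a value was marked where its gap to the nearest other library took up more of the group's range than Dixon's critical value for 4 values. This was so for 9 of the 22 member and group pairs that had any spread. Chance marks about 1 of 20 groups of normally distributed values, a rate that cannot be set against these 9, since 4 of the groups hold 3 zeros and a single value above 0, which is then always marked. In WT replicate 1, *Elane* at 5.42 TPM and *Mpo* at 7.21 TPM stood far above the other WT libraries, which held at most 0.0722 TPM of either. In KO replicate 3, *Ngp* at 12.5 TPM stood above 0.942 TPM and *Ltf* at 1.92 TPM above 0.185 TPM in the nearest KO libraries. In KO inflamed replicate 4, *Elane* read 0.516 TPM and *Mpo* 0.493 TPM, next to at most 0.0489 TPM in the others of that group. *Mpo* read 0.559 TPM in KO replicate 1 and was listed at 0 in the other KO libraries. *Ltf* read 0.541 TPM in WT inflamed replicate 3 and was listed at 0 in the other 3. *S100a9* was the only member with a low library marked, at 11.3 TPM in KO replicate 4 beside 16.8 to 17.4 TPM in the others. *S100a8* and *Ctsg* had no library marked in any group.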

How the results depend on the processing

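The 3 calls in KO inflamed against KO LECs held under all 18 alternatives that could be fitted for each member. In KO against WT, 2 members were called, and 1 (*S100a9*) with a pseudocount of 5 TPM and 0 in the fit over all 16 libraries. In WT inflamed against WT, 1 member was called, and 0 with a pseudocount of 0.1 TPM, of 5 TPM or with a minimum of 5 TPM, where *Ctsg* was not tested. Leaving out each library in turn gave 2 to 2 members called in KO against WT, 1 to 1 in WT inflamed against WT, 3 to 3 in KO inflamed against KO, 0 to 0 in KO inflamed against WT inflamed and 0 to 0 in the interaction. Over all genes these counts moved more: without WT inflamed replicate 2, 1052 genes were called in WT inflamed against WT in place of 476, while *Ctsg* was called with and without it (log2 fold change -2.07 without). A term for the replicate number left the members' calls as they were, with *S100a8* in KO against WT at an adjusted p of 0.0508 (limma). Deviations of same-numbered libraries correlated with r from -0.0386 to -0.00173 for KO against WT, where other library pairs gave -0.104 to 0.138. For WT inflamed against WT r ran from -0.208 to 0.124, with -0.3 to 0.336 for other pairs. Such correlations over all genes cannot tell whether same-numbered libraries were paired or handled together. Depth is unknown, and levels under 1 TPM rest on few reads.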

Other observations

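The single-library pattern was not limited to neutrophil transcripts. By the same rule as for *Elane* and *Mpo* (1 TPM or more and over 10 times every other library), KO replicate 2 had 8 protein-coding genes, among them the epithelial keratins *Krt19* at 13.6 TPM, *Krt8* at 12.6 TPM and *Krt18* at 9.01 TPM, each at most 0.592 TPM in the other 15 libraries. That library had *Ngp* at 0.835 TPM and *Elane* and *Mpo* at 0, and its *S100a8* and *S100a9* levels lay within the range of the other KO libraries, while its *Ctsg* at 16.6 TPM was the highest of all 16 libraries. The keratins were chosen after their values were seen.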
